A study of Homo sapiens with 12 samples.

Results

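The nuclear genes for mitochondrial ribosomal proteins were described in the human glioblastoma line U-87 MG (U87), an established culture whose hypoxia-inducible factors had been knocked out. They were taken by name, as every gene whose symbol starts with MRPL or MRPS and a digit, with earlier results of these data known. In the deposited table, 78 of the 20263 genes met this rule, 49 named MRPL and 29 named MRPS. All 12 libraries came from cells at 1% O2, for 72 h by the record of the experiment, whereas the methods give a shorter exposure for mRNA work. The 4 groups of 3 libraries were cells with an empty vector (vector), cells with HIF1α knocked out (HIF1α-ko), cells with HIF2α knocked out (HIF2α-ko) and cells with both knocked out (HIF1α/2α-ko). No group was kept at normal oxygen, so every difference below is one between groups within hypoxia. How the knockouts were made, and whether each line was 1 clone, is not given in the sources used here. Nothing says that the 3 libraries of a group came from separate cultures, so the p-values measure only the spread between these libraries, which may be technical.

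Mitochondria keep a ribosome of their own, the mitoribosome, which translates the few mRNAs of the mitochondrial genome into core subunits of the respiratory chain and ATP synthase. All of its proteins are made from nuclear genes, imported and assembled on mitochondrial rRNA into a small subunit, which decodes the mRNA, and a large subunit, which joins the amino acids. Some of these proteins descend from bacterial ribosomal proteins and others exist only in mitochondria. HIF1α and HIF2α, encoded by HIF1A and EPAS1, are the oxygen-regulated subunits of transcription factors that bind DNA at a short core, ACGTG or GCGTG, and HIF1α is known for lowering mitochondrial respiration in hypoxia.

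Expression was given as TPM, the share of all transcripts after division by gene length and scaling to a fixed total, and each difference below is a log2 fold change of TPM + 1 with an adjusted p from limma over the 11731 genes tested. The standard errors (SE) of the changes against vector and between groups ran from 0.101 to 0.453 over the 78 genes. The targeted mRNAs were lower but present. HIF1A stood at 112, 110 and 151 TPM for vector, at 57.3, 49.5 and 38.6 for HIF1α-ko, at 108, 76.1 and 76.6 for HIF2α-ko and at 89.2, 67.8 and 69.4 for HIF1α/2α-ko. The HIF1α-ko libraries lay below all others, with a change of -1.34 (adjusted p = 0.000851), whereas HIF1α/2α-ko, at -0.71 (adjusted p = 0.0104), overlapped with HIF2α-ko (difference -0.19, adjusted p = 0.453). EPAS1 stood at 286, 333 and 346 TPM for vector, at 251, 288 and 255 for HIF1α-ko, at 87.6, 118 and 116 for HIF2α-ko and at 101, 120 and 130 for HIF1α/2α-ko. Both groups with a HIF2α knockout lay apart from both groups without one. These mRNA levels do not show how much protein was left. By western blot, the paper reports more HIF2α protein after HIF1α knockout and more HIF1α protein after HIF2α knockout. The part of these protein changes in the results below was not tested. Of 5 markers of the line, VIM was at 5635 TPM or more in every library, and NES was lowest, at 2.64 to 6.17 TPM. VIM (-0.96, adjusted p = 0.000412), SPARC (-0.92, adjusted p = 0.0163) and TNC (-0.31, adjusted p = 0.0124) fell in HIF1α/2α-ko, where CD44 (-0.32) and NES (-0.24) were not called, and 1 marker fell in each single knockout, TNC in HIF1α-ko (-0.32) and VIM in HIF2α-ko (-0.81). Their part in the results below was not tested. Of 8 markers of other cells PTPRC, CD3E, EPCAM, KRT5 and GFAP were at 0.639 TPM or less. Of the other markers, PECAM1 was at 1.19 TPM or less, CDH5 at 3.63 TPM or less, and OLIG2, of the oligodendrocyte lineage, reached 19.2 TPM in HIF1α/2α-ko (change 2.31, adjusted p = 0.000828); its part in the results below was not tested. Vector replicate 1 stood apart from the other vector libraries (Pearson r across the genes tested 0.968 and 0.966, against 0.989 between the other pair). Replicate 1 was also the least alike in each knockout group, at 0.977 or less against 0.992 for HIF1α/2α-ko, 0.982 and 0.983 against 0.991 for HIF1α-ko, and 0.985 for both pairs against 0.992 for HIF2α-ko. With replicate 1 of every group left out, 41 of the 78 genes rose and 8 fell in HIF1α/2α-ko, beside 45.7% and 19.2% of all genes. In bulk RNA, fewer cells of a type and less RNA per cell cannot be told apart.

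All 78 genes were above 0 TPM in every library, passed the filter on low values and were tested. They lie on 21 chromosomes, with a median transcript length of 1034 bases against 1738 for all genes tested and a median level of 31.1 TPM against 11.2. TPM is a level per length, so the genes can be ranked. The highest mean levels over all libraries were those of MRPS6 (616 TPM), MRPS24 (323 TPM) and MRPL23 (189 TPM), and the lowest those of MRPL1 (1.37 TPM), MRPL19 (2.00 TPM) and MRPL50 (3.32 TPM). The order differed by group, and within vector MRPL37 (246 TPM) and MRPS2 (189 TPM) stood above MRPL23 (150 TPM), and MRPL19 (1.38 TPM) below MRPL1 (1.73 TPM).

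In HIF1α/2α-ko, 32 of the 78 genes rose against vector and 6 fell. That is 41.0% and 7.69% of them, beside 31.8% and 14.8% of all genes tested. In HIF1α-ko, 19 rose and 5 fell, 24.4% and 6.41%, beside 17.3% and 8.77% of all genes. In HIF2α-ko, 10 rose and 7 fell, 12.8% and 8.97%, beside 5.07% and 5.89% of all genes. These 3 comparisons share the vector libraries. The median change of the ribosomal protein genes was 0.32 for HIF1α/2α-ko, 0.20 for HIF1α-ko and 0.04 for HIF2α-ko, and that of all genes 0.21, 0.18 and -0.04, so relative to all genes the family lay 0.12, 0.03 and 0.08 higher. Between replicates, this offset of the family from all genes had an SD of 0.0604. Median ratio scaling put both medians at 0.01 in HIF1α-ko. Without replicate 1 of every group, the medians in HIF1α/2α-ko were 0.37 for the family and 0.31 for all genes. The changes of single genes ran from -1.21 to 2.18.

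The share of higher calls depended on scaling. With libraries rescaled by median ratio, which moved the median of all genes from 0.21 to 0.01 in HIF1α/2α-ko and from 0.18 to 0.01 in HIF1α-ko, 21 of the genes rose and 8 fell in HIF1α/2α-ko (24.3% and 22.3% of all genes), 11 rose and 6 fell in HIF1α-ko (10.9% and 13.1%) and 10 rose and 6 fell in HIF2α-ko (6.45% and 4.96%). Quantile normalization left 22 rises and 10 falls in HIF1α/2α-ko (24.1% and 24.3% of all genes), 16 and 6 in HIF1α-ko (13.5% and 12.8%), and 12 and 7 in HIF2α-ko (6.71% and 5.96%). With the trend over transcript GC content removed, 4 rose and 7 fell in HIF2α-ko, beside 3.77% and 6.64% of all genes. Leaving out vector replicate 1, which stood apart, gave 31 and 7 (33.2% and 15.3% of all genes), 20 and 7 (24.2% and 11.7%), and 11 and 9 (11.1% and 10.2%) for HIF1α/2α-ko, HIF1α-ko and HIF2α-ko. The 20 and 11 rises then made up 25.6% and 14.1% of the 78 genes, near the shares of all genes. The differences followed through every setting were the largest ones by contrast among the 78 genes, and those against vector of genes with a stated role. Of these, 67 were past the threshold, 62 stayed past it under both scalings, and none changed sign. Other calls named in the text, such as those of genes outside the 78, were not counted here.

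**Figure D1:**
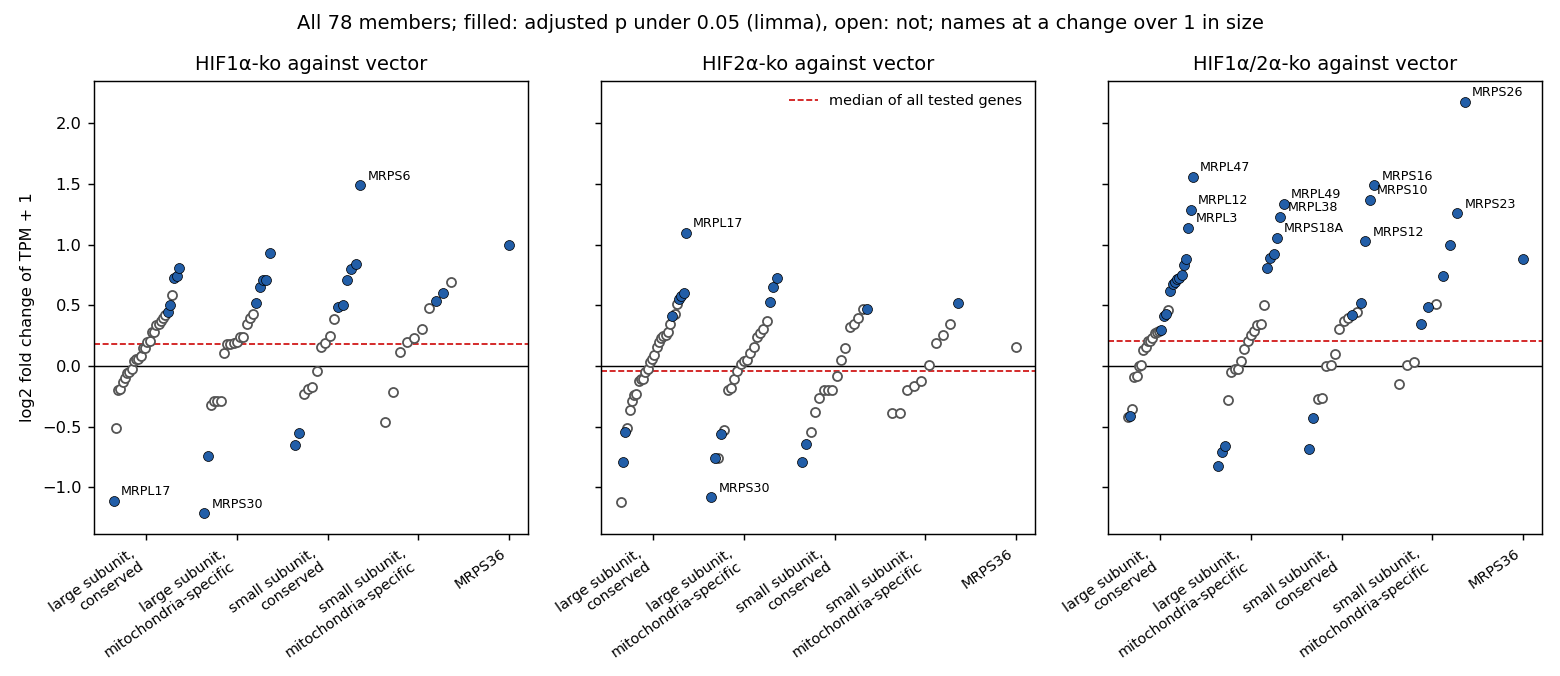
Log2 fold change of TPM + 1 of each of the 78 genes against vector, by subunit and origin, in the 3 knockout groups; filled points passed adjusted p 0.05, open points did not, and the dashed line is the median of all genes tested. MRPL17 is the lowest conserved large subunit gene in HIF1α-ko (-1.11) and the highest in HIF2α-ko (1.10), and MRPS26 is the highest point in HIF1α/2α-ko (2.18).

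**Figure D2:**
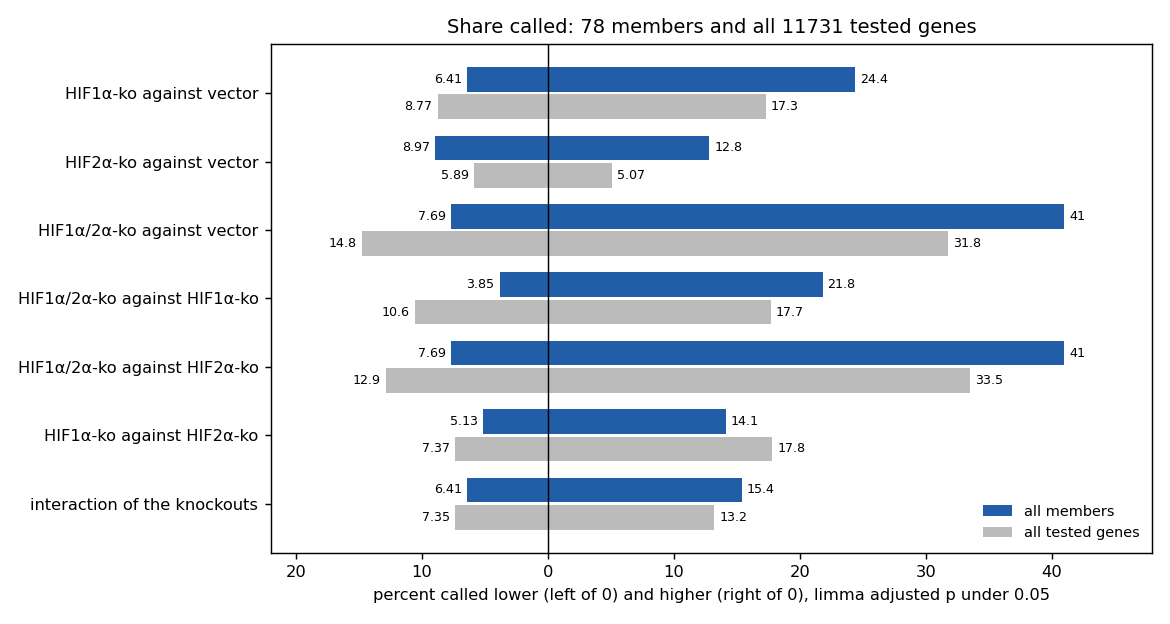
Percent of the 78 ribosomal protein genes (blue) and of all 11731 genes tested (grey) that were higher (right of 0) or lower (left of 0) at adjusted p under 0.05 in each of the 7 comparisons. The blue bar for higher genes is longer than the grey one in 6 of the 7, by the widest ratio in HIF2α-ko (12.8% beside 5.07%).

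By structure, the rises in HIF1α/2α-ko covered 14 of 30 large subunit proteins conserved in bacteria (1 fell), 6 of 21 large subunit proteins found only in mitochondria (3 fell), 5 of 16 conserved small subunit proteins (2 fell) and 6 of 10 mitochondria-specific small subunit proteins (none fell, also at an unadjusted p under 0.05). The corresponding counts in HIF1α-ko were 5 rises and 1 fall, 5 and 2, 6 and 2, and 2 and 0. In HIF2α-ko they were 5 and 2, 3 and 3, 1 and 2, and 1 and 0. MRPS36, a protein now assigned to the oxoglutarate dehydrogenase complex and kept out of these structural groups, made up the rest. In the order above, the rises in HIF1α/2α-ko made up 46.7%, 28.6%, 31.2% and 60.0% of the structural groups, beside 31.8% of all genes. Of all genes, 14.8% fell there. In HIF1α-ko 17.3% of all genes rose and 8.77% fell, and in HIF2α-ko 5.07% rose and 5.89% fell. Whether any structural group differed from all genes was not tested.

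The summed level of all 78 genes was led by 1 of them. It was 3998 ± 227 TPM (SD, n = 3) for vector, 5096 ± 273 for HIF1α-ko, 4042 ± 120 for HIF2α-ko and 4480 ± 165 for HIF1α/2α-ko. MRPS6, a conserved protein of the small subunit, made up 12% of the sum for vector, 26.5% for HIF1α-ko, 8.25% for HIF2α-ko and 6.64% for HIF1α/2α-ko. Without it the sums were 3518 ± 242, 3742 ± 73.9, 3708 ± 84.9 and 4183 ± 150 TPM, and the HIF1α/2α-ko libraries (4012 to 4295) lay well above the vector libraries (3239 to 3665). The HIF1α-ko libraries (3686 to 3826) also lay above vector, by a narrow gap, and those of HIF2α-ko (3640 to 3803) overlapped with it. These sums were not rescaled. The median change of all genes was itself 0.21 in HIF1α/2α-ko and 0.18 in HIF1α-ko, and 0.01 in both with median ratio scaling. How much of the differences in the sums goes with that shift was not tested.

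**Figure D3:**
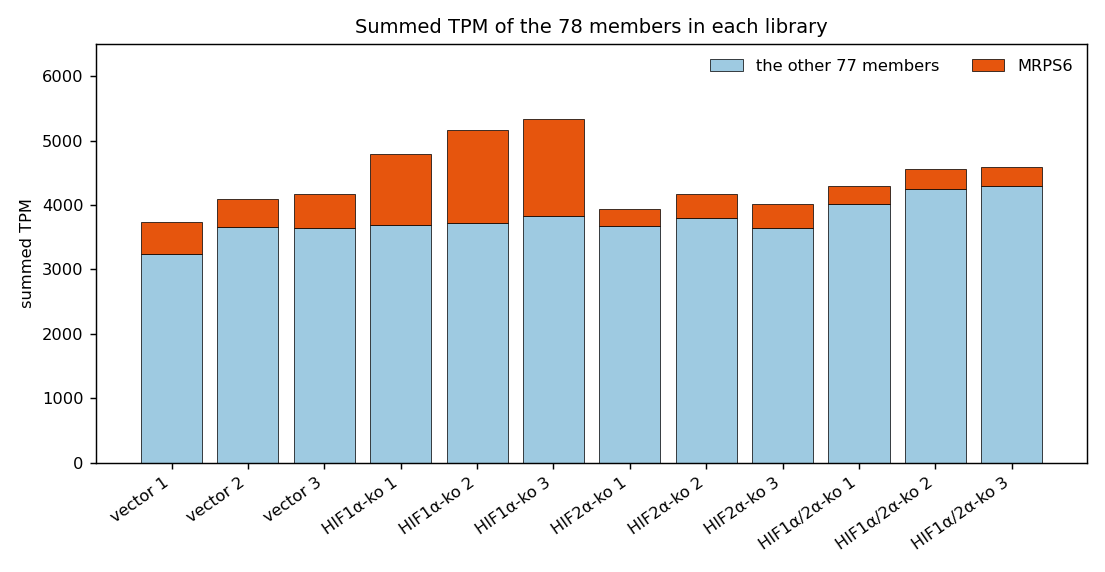
Summed TPM of the 78 genes in each of the 12 libraries, with MRPS6 in orange and the other 77 genes in blue. The orange part is largest in the 3 HIF1α-ko libraries, and the blue part is highest in the 3 HIF1α/2α-ko libraries (4012 to 4295 TPM).

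MRPS6 (chr21:34073224-34143034, plus strand) was read at 500, 423 and 517 TPM for vector, at 1112, 1443 and 1507 for HIF1α-ko, at 257, 370 and 375 for HIF2α-ko and at 280, 311 and 302 for HIF1α/2α-ko. The HIF1α-ko libraries lay far above all others and the HIF1α/2α-ko libraries below all vector libraries. The changes were 1.49 (SE 0.162, adjusted p = 0.000203) for HIF1α-ko, -0.68 (adjusted p = 0.00441) for HIF1α/2α-ko and -0.54 (adjusted p = 0.0529) for HIF2α-ko, where the test was missed. HIF1α-ko exceeded HIF2α-ko by 2.02 (adjusted p = 7.17e-06), and HIF1α/2α-ko lay 2.17 below HIF1α-ko on the log2 scale (change -2.17, adjusted p = 6.37e-06). The gene shares 176 exon bases, 17.8% of its exon length, on the same strand with SLC5A3, a myo-inositol transporter gene whose own level was 5.19 ± 0.338 TPM for vector, 13.8 ± 3.30 for HIF1α-ko, 1.87 ± 0.328 for HIF2α-ko and 3.22 ± 1.32 for HIF1α/2α-ko (SD, n = 3). How far reads of these overlapping genes were split between them was not tested.

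Among the other proteins of the small subunit, MRPS26, a mitochondria-specific protein, had the largest rise of the family in HIF1α/2α-ko. It stood at 8.13, 8.92 and 7.54 TPM for vector, at 11.3, 14.4 and 13.3 for HIF1α-ko, at 12.3, 12.3 and 12 for HIF2α-ko and at 37.4, 43.3 and 40.9 for HIF1α/2α-ko. All knockout libraries were above all vector libraries, and the HIF1α/2α-ko libraries stood far above every other. The rises were 0.60 (adjusted p = 0.00831), 0.52 (adjusted p = 0.0297) and 2.18 (SE 0.137, adjusted p = 7.12e-07), a fold of 4.52 for the last on the scale of TPM + 1. The sequence upstream of its GENCODE gene (RefSeq, GRCh38.p14, chr20:3045802-3045944, plus strand) is shown because of this rise, with the HIF core GCGTG in capitals.
MRPS26: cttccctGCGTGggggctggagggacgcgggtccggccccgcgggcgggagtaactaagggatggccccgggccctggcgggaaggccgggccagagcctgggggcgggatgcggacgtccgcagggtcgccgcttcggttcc
A second GCGTG lay 85 bases before the start, and the ETS motif CCGGAAG 37 bases before it, both in the downstream stretch of the window that is left out here because it is inside the GENCODE gene.

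MRPS16, another conserved protein of the small subunit, stood at 24.6, 22.9 and 23.8 TPM for vector, at 37.0, 41.8 and 48.3 for HIF1α-ko, at 32.2, 34.2 and 33.8 for HIF2α-ko and at 54.9, 79.8 and 73.8 for HIF1α/2α-ko, with no overlap between vector and any knockout. It rose by 0.80 (adjusted p = 0.00331) for HIF1α-ko and by 1.49 (adjusted p = 1.54e-05) for HIF1α/2α-ko, and its 0.47 in HIF2α-ko missed the test (adjusted p = 0.0656). MRPS12, a protein of the decoding centre, stood at 30.8, 37.6 and 28.1 TPM for vector, at 53.9, 59.4 and 60.4 for HIF1α-ko, at 47.1, 43.6 and 43.7 for HIF2α-ko and at 58.2, 70.9 and 71.3 for HIF1α/2α-ko. Its vector libraries again lay below all knockout libraries, with rises of 0.84 (adjusted p = 0.0016), 0.47 (adjusted p = 0.0448) and 1.03 (adjusted p = 8.65e-05). The HIF2α-ko call was lost when any of 9 of the 12 libraries was left out, vector replicate 3 among them (adjusted p = 0.175). MRPS12 shares 349 exon bases with SARS2 on the opposite strand, so its reads cannot be told from those of SARS2 where counting ignored strand.

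MRPS10, a conserved protein of the small subunit, was called against vector only in HIF1α/2α-ko. It stood at 5.53, 5.69 and 5.88 TPM for vector, at 6.48, 9.13 and 7.85 for HIF1α-ko, at 3.89, 4.99 and 5.73 for HIF2α-ko and at 13, 17.2 and 19.1 for HIF1α/2α-ko. The change was 1.37 (adjusted p = 0.000101) for HIF1α/2α-ko against 0.39 (adjusted p = 0.139) and -0.20 (adjusted p = 0.528) in the single knockouts, and the difference between HIF1α/2α-ko and the sum of the single changes was 1.18 (adjusted p = 0.00927). MRPS2 and MRPS5, conserved proteins of the small subunit, fell in both single knockouts instead. MRPS5 stood at 60.6, 93.7 and 103 TPM for vector, at 54.0, 57.3 and 48.7 for HIF1α-ko, at 51.7, 49.6 and 43.6 for HIF2α-ko and at 74.1, 64.1 and 71.0 for HIF1α/2α-ko. The vector values spread widely, and the lowest of them, 60.6, fell below every HIF1α/2α-ko library. The changes of MRPS5 were -0.65 (adjusted p = 0.02), -0.79 (adjusted p = 0.0159) and -0.26 (adjusted p = 0.241), and those of MRPS2 -0.55 (adjusted p = 0.0211), -0.64 (adjusted p = 0.0212) and -0.43 (adjusted p = 0.0348). MRPS2 stood at 137, 219 and 211 TPM in vector and between 116 and 138 in all 9 knockout libraries. Each called fall of MRPS2 and MRPS5 was lost without vector replicate 2 and also without vector replicate 3.

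The MRPS18 paralogs sit at different places in the mitoribosome. MRPS18A, in the large subunit, stood at 69.3, 61.6 and 55.6 TPM in vector and at 100, 145 and 151 in HIF1α/2α-ko, without overlap, and rose there by 1.06 (adjusted p = 0.000144), and by 0.65 (adjusted p = 0.00911) for HIF1α-ko. MRPS18B and MRPS18C, both in the small subunit, had changes of 0.01 (adjusted p = 0.949) and 0.10 (adjusted p = 0.636) for HIF1α/2α-ko. MRPS18A shares 604 exon bases with RSPH9 and MRPS18C 1296 with ABRAXAS1, 56.9% and 78.9% of their exon length, so their levels are uncertain to that extent.

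In the large subunit, MRPL17, a conserved protein beside the exit tunnel for the growing chain, moved in opposite directions in the single knockouts. It stood at 67.4, 69.3 and 50.6 TPM for vector, at 28.9, 27.3 and 28.3 for HIF1α-ko, at 139, 129 and 135 for HIF2α-ko and at 43.0, 49.6 and 52.4 for HIF1α/2α-ko. The HIF1α-ko libraries lay lowest and the HIF2α-ko libraries highest, without overlap, and HIF1α/2α-ko overlapped with the lowest vector library. The changes were -1.11 (SE 0.137, adjusted p = 0.000352) for HIF1α-ko, 1.10 (adjusted p = 0.00157) for HIF2α-ko and -0.35 (adjusted p = 0.0503) for HIF1α/2α-ko, and HIF1α-ko lay 2.21 below HIF2α-ko (change -2.21, adjusted p = 1.26e-06). The upstream sequence (RefSeq, GRCh38.p14, chr11:6683402-6683590, minus strand) is shown for this contrast, chosen after its values were seen. Capitals mark GCATGCGC, the NRF1 motif, which overlaps its own reverse complement here, and CACGT, the reverse complement of the HIF core ACGTG.
MRPL17: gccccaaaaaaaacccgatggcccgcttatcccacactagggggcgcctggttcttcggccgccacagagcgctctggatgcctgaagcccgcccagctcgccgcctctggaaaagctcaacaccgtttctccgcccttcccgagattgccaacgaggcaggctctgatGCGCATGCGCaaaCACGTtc
A GCGTG and another NRF1 match stood nearer to the start, 59 and 43 bases before it, inside the gene.

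The exit tunnel also holds MRPL23, MRPL45 and MRPL47. Of its 6 members, 3 rose in HIF1α/2α-ko, where 31.8% of all genes rose. Whether so short a list differed from all genes was not tested. Of MRPL17, MRPL23, MRPL45 and MRPL47, only MRPL47 was called there. MRPL47 stood at 5.04, 4.57 and 3.54 TPM for vector, at 6.28, 9.60 and 9.68 for HIF1α-ko, at 3.73, 6.98 and 6.29 for HIF2α-ko and at 10.7, 17.9 and 16.8 for HIF1α/2α-ko, the last 3 above all other libraries. Its rise was 1.56 (adjusted p = 0.00034), and 0.81 (adjusted p = 0.0339) for HIF1α-ko, a call lost without vector replicate 2 or 3 and without HIF1α-ko replicate 2 or 3 (adjusted p up to 0.121). It shares 124 exon bases on the opposite strand with ACTL6A, which rose by 1.99 in HIF1α/2α-ko. MRPL23 was highest in the single knockouts, at 144, 160 and 147 TPM for vector, 222, 195 and 222 for HIF1α-ko, 232, 209 and 220 for HIF2α-ko and 160, 184 and 177 for HIF1α/2α-ko. The single knockouts were above vector, by 0.50 (adjusted p = 0.00627) and 0.55 (adjusted p = 0.0085), and HIF1α/2α-ko stood between (0.21, adjusted p = 0.13). The first of these calls was lost under median ratio scaling (adjusted p = 0.146) and the second with the GC trend removed (adjusted p = 0.0838). MRPL45, which anchors the ribosome to the inner membrane, was not called against vector (0.19, -0.04 and 0.35, adjusted p 0.394, 0.903 and 0.0951).

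MRPL12 of the factor-binding stalk is the protein that also binds the mitochondrial RNA polymerase. It stood at 34.8, 59.5 and 47.5 TPM for vector, between 47.5 and 57.4 for HIF1α-ko, at 69.6, 47.6 and 48.2 for HIF2α-ko and at 122, 109 and 113 for HIF1α/2α-ko. Only the HIF1α/2α-ko libraries lay apart, with a rise of 1.29 (adjusted p = 0.000206) beside 0.15 (adjusted p = 0.583) and 0.23 (adjusted p = 0.494), and the excess over the sum of the single changes was 0.91 (adjusted p = 0.0353). An unnamed GENCODE gene with a mean of 0.762 TPM or less in each group shares 701 of its exon bases. MRPL54 of the same stalk stood at 88.9, 118 and 96.1 TPM for vector, at 112, 113 and 132 for HIF1α-ko, at 167, 169 and 167 for HIF2α-ko and at 121, 126 and 120 for HIF1α/2α-ko. HIF2α-ko lay above all others, by 0.73 (adjusted p = 0.00497) against vector, whereas the changes of 0.24 and 0.29 in the other knockouts missed the test.

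MRPL41 and MRPL14 rose in all 3 knockouts. MRPL41, once studied for effects on apoptosis, stood at 34.9, 32.0 and 29.1 TPM for vector, at 59.1, 62.2 and 64.1 for HIF1α-ko, at 53.9, 49.7 and 48.5 for HIF2α-ko and at 56.3, 59.5 and 54.9 for HIF1α/2α-ko. All 9 knockout libraries lay above all vector libraries, with rises of 0.93 (adjusted p = 0.000349), 0.65 (adjusted p = 0.00575) and 0.81 (adjusted p = 0.00013), the second of which was lost with the GC trend removed (adjusted p = 0.0532). MRPL14 stood at 76.6, 69.7 and 60.6 TPM in vector and between 102 and 122 in all 9 knockout libraries, with rises of 0.73 (adjusted p = 0.00125), 0.60 (adjusted p = 0.00777) and 0.72 (adjusted p = 0.000309). MRPL49 stood at 15.1, 15.3 and 9.99 TPM in vector and at 31.1, 35.7 and 38.5 in HIF1α/2α-ko, where it rose by 1.34 (adjusted p = 6.36e-05). It shares 114 exon bases on the opposite strand with FAU and 93 with SYVN1. FAU stood at a mean of 273 TPM in vector and 375 in HIF1α/2α-ko (0.45, adjusted p = 0.0135). SYVN1 stood at 21.9 and 32.8 TPM (0.57, adjusted p = 0.0553). How far reads of these genes were split between them was not tested.

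Falls in all 3 knockouts were found for MRPS30, MRPL37 and MRPS2. MRPS30, which despite its name sits in the large subunit, stood at 36.6, 68.2 and 84.7 TPM for vector, at 22.3, 29.2 and 24.4 for HIF1α-ko, at 28.9, 26.9 and 27.3 for HIF2α-ko and at 40.2, 29.9 and 31.1 for HIF1α/2α-ko. The vector libraries were more than 2-fold apart, and 1 of them lay below the highest HIF1α/2α-ko library. The changes were -1.21 (SE 0.248, adjusted p = 0.00484), -1.08 (adjusted p = 0.0172) and -0.82 (adjusted p = 0.0168), and the latter pair of calls was lost without vector replicate 2 or 3 (adjusted p up to 0.0787) and without replicate 2 or 3 of the knockout itself. The sequence upstream of its gene (RefSeq, GRCh38.p14, chr5:44808697-44808924, plus strand), the largest fall in HIF1α/2α-ko, holds the HIF core GCGTG once, as its reverse complement CACGC in capitals.
MRPS30: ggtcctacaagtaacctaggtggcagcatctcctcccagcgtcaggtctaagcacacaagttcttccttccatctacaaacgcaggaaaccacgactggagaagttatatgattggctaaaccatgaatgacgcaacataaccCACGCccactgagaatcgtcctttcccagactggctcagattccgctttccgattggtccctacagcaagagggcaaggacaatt
MRPL37, specific to mitochondria, stood at 199, 241 and 300 TPM in vector and between 135 and 168 in all 9 knockout libraries, with changes of -0.74 (adjusted p = 0.00375), -0.76 (adjusted p = 0.00755) and -0.66 (adjusted p = 0.00273), and no setting lost these calls.

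**Figure D4:**
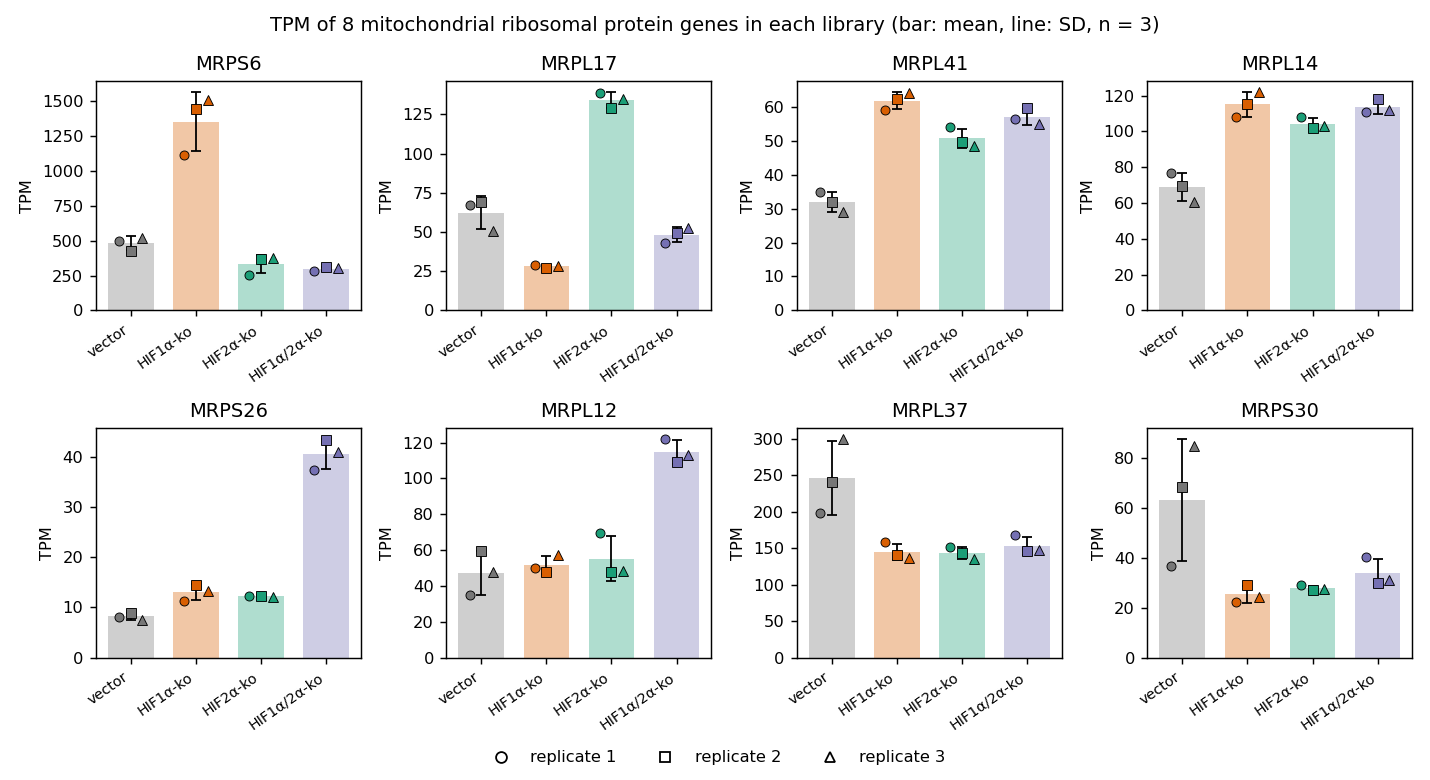
TPM of 8 mitochondrial ribosomal protein genes in each library (circle, square and triangle for replicates 1, 2 and 3; bar, mean; line, SD, n = 3). MRPS6 is highest in HIF1α-ko, MRPL17 in HIF2α-ko, MRPS26 and MRPL12 in HIF1α/2α-ko, and MRPL37 in vector, where replicate 1 of MRPS30 lies apart at 36.6 TPM.

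MRPL43, at 93.9, 110 and 126 TPM in vector and 73.7, 63.6 and 62.0 in HIF1α/2α-ko, fell by 0.71 on the log2 scale there (change -0.71, adjusted p = 0.00118) and shares exon bases on the opposite strand with SEMA4G and TWNK. MRPL32, which is cut by a protease of the inner membrane before it joins the ribosome, stood at 27.0, 29.3 and 36.5 TPM in vector and 13.9, 20.1 and 18.8 in HIF2α-ko (-0.79, adjusted p = 0.0121), a call lost without vector replicate 3 (adjusted p = 0.0608). MRPL1, at 0.709 to 2.14 TPM, had changes of -0.54 (adjusted p = 0.0433) for HIF2α-ko and -0.41 (adjusted p = 0.0467) for HIF1α/2α-ko, the second lost when any of 10 of the 12 libraries was left out. MRPL27, of the central protuberance, reached 0.58 (adjusted p = 0.0436) for HIF2α-ko, which was lost when any of 10 of the 12 libraries was left out. MRPL58, a peptide release factor built into the central protuberance, stood at 18.2, 27.9 and 22.4 TPM in vector and at 31.7, 50.8 and 50.7 in HIF1α/2α-ko and rose there by 0.92 (adjusted p = 0.00214). MRPL3, next to the catalytic centre, stood at 13.5, 10.9 and 15.1 TPM in vector and at 18.2, 32.9 and 44.1 in HIF1α/2α-ko, a rise of 1.14 (adjusted p = 0.00585). Among the genes of extreme level, MRPL19, at 1.34, 1.28 and 1.53 TPM in vector and 2.93, 3.88 and 3.34 in HIF1α/2α-ko, rose by 0.88 (adjusted p = 0.00106), whereas MRPS24 (0.01, adjusted p = 0.977) and MRPL50 (0.50, adjusted p = 0.128) were not called. The rises in HIF1α/2α-ko not named above ran from 0.30 (MRPL28) to 1.26 (MRPS23), and the 40 genes not called there from -0.42 (MRPL34) to 0.51 (MRPS31). MRPS36 stood at 6.26, 6.68 and 7.52 TPM for vector, at 10.4, 15.9 and 18.7 for HIF1α-ko, at 6.14, 8.14 and 9.24 for HIF2α-ko and at 9.71, 15.6 and 15.7 for HIF1α/2α-ko. It rose by 1.00 (adjusted p = 0.0103) for HIF1α-ko, a call lost without HIF1α-ko replicate 3 (adjusted p = 0.0539), and by 0.88 (adjusted p = 0.0091) for HIF1α/2α-ko.

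Comparisons between knockouts set the cells with both knockouts beside those with either. Against HIF1α-ko, 17 of the 78 genes were higher and 3 lower in HIF1α/2α-ko, 21.8% and 3.85%, beside 17.7% and 10.6% of all genes, and with same-numbered knockout libraries as a replicate block the counts were 32 and 7, beside 29.3% and 19.4%. The largest rises were those of MRPS26 (1.57, adjusted p = 2.44e-05), MRPL12 (1.14, adjusted p = 0.00123) and MRPS10 (0.98, adjusted p = 0.00221), and the falls those of MRPS6, MRPL51 (-0.48, adjusted p = 0.012) and MRPL1 (-0.46, adjusted p = 0.0456). The call of MRPL51 was lost without HIF1α-ko replicate 3 (adjusted p = 0.051) or HIF1α/2α-ko replicate 2, and that of MRPL1 when any of 9 of the 12 libraries was left out. Against HIF2α-ko, 32 were higher and 6 lower, 41.0% and 7.69%, beside 33.5% and 12.9% of all genes. The largest were MRPS26 (1.65, adjusted p = 4.11e-06), MRPS10 (1.57, adjusted p = 3.94e-05) and MRPL3 (1.38, adjusted p = 0.00179) in the rising direction and MRPL17 (-1.46, adjusted p = 9.17e-06), MRPL55 (-0.51, adjusted p = 0.0448) and MRPL54 (-0.45, adjusted p = 0.0106) in the falling one, where the call of MRPL55 was lost when any of 7 libraries was left out (adjusted p up to 0.157). With median ratio scaling 19 were higher and 9 lower (23.4% and 21.2% of all genes).

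Between the single knockouts, 11 genes were higher in HIF1α-ko and 4 lower, 14.1% and 5.13%, beside 17.8% and 7.37% of all genes. Under the replicate block these counts were 29 and 5, beside 38.2% and 12.7%, and with median ratio scaling 3 and 5, beside 8.78% and 11.2%. After MRPS6, the largest differences were those of MRPL3 (0.84, adjusted p = 0.0476), lost under both scalings, and MRPS36 (0.83, adjusted p = 0.0242), lost without either of 2 libraries in each group, and in the other direction, after MRPL17, those of MRPL28 (-0.60, adjusted p = 0.00304) and MRPL54 (-0.49, adjusted p = 0.0132), the last lost with the GC trend removed (adjusted p = 0.061) and without HIF1α-ko replicate 2 (adjusted p = 0.0597). MRPL28 stood at 93.1, 82.2 and 86.3 TPM in HIF1α-ko and at 135, 128 and 134 in HIF2α-ko, without overlap, and it shares 223 exon bases with PGAP6 on the same strand.

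Whether the double knockout equalled the sum of the single ones was asked with an interaction term, defined as the HIF1α/2α-ko change less both single changes. It was positive for 12 genes and negative for 5, 15.4% and 6.41%, beside 13.2% and 7.35% of all genes, with median ratio scaling for 7 and 6 (11.8% and 8.85%), and with quantile normalization for 8 and 12 (11.5% and 11.2%), where the negative terms were the more numerous. The largest positive terms were those of MRPS30 (1.48, adjusted p = 0.0124), MRPS10 (1.18) and MRPS5 (1.17, adjusted p = 0.00799). Of these, MRPS30 and MRPS5 fell in both single knockouts and stood at -0.82 and -0.26 in HIF1α/2α-ko, and MRPS10 was called in neither single knockout. The largest negative terms were those of MRPS6 (-1.63, adjusted p = 0.00124), MRPL23 (-0.84, adjusted p = 0.0035) and MRPL41 (-0.77, adjusted p = 0.00734).

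Promoters of 69 of the 78 genes were in the RefSeq table (GRCh38.p14), and motifs were searched on both strands in the 250 bases before the start. ACGTG or GCGTG was present in 60.9% of them and in 57.8% of the 9439 promoters of tested genes, and the E-box CACGTG, which holds ACGTG, in 8.7% and 9.14%. The NRF1 motif GCATGCGC was present in 8.7% and 4.92%, the ETS motif CCGGAAG in 33.3% and 16.4% and the YY1 motif AAGATGGC in 7.25% and 1.85%. By call in HIF1α/2α-ko, a HIF core was present in 16 of 30 genes that rose, 6 of 6 that fell and 20 of 33 that were not called. A match is only a run of letters in this window.

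Of the 5 mitoribosome proteins with other symbols, DAP3, a small subunit GTPase, stood at 32.8, 27.4 and 28.9 TPM in vector and at 65.7, 76.1 and 76.1 in HIF1α/2α-ko, with no overlap, and rose by 1.26 (adjusted p = 7.73e-05). AURKAIP1 rose in all 3 knockouts (0.50, 0.53 and 0.80, adjusted p = 0.0159, 0.0235 and 0.000371). CHCHD1 rose in HIF1α-ko (0.63, adjusted p = 0.00636), GADD45GIP1 fell there (-0.47, adjusted p = 0.0367), and PTCD3 was not called against vector.

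The genes that serve the ribosome were counted in the same way in HIF1α/2α-ko, beside 31.8% of all genes higher and 14.8% lower. Their lists were written with earlier results of these data known. They were counted without rescaling only, and median ratio scaling moved the shares of all genes to 24.3% and 22.3%. Of 25 genes for mitoribosome assembly and rRNA modification, 15 rose, a share of 60.0%, and none fell, also at an unadjusted p under 0.05. MPV17L2 had a change of 2.03 (adjusted p = 4.02e-06) and DDX28, an RNA helicase of the large subunit, of 1.90 (adjusted p = 0.00412). Among 17 translation factors, 8 rose and 2 fell, with the elongation factors GFM1 (1.51, adjusted p = 0.00233) and TSFM (1.24, adjusted p = 9.05e-05) in front. The list of mitochondrial aminoacyl-tRNA synthetases also held QRSL1, GATB and GATC, which encode subunits of a tRNA amidotransferase and not synthetases. Of its 19 tested genes, 9 rose and 1 fell, with QRSL1 (1.31) in front. No mRNA of the 13 in the mitochondrial genome was called by limma in any knockout against vector, nor did any pass an unadjusted p under 0.05, and their summed share of all transcripts spanned 0.517% to 3.17% within vector alone. In HIF1α-ko the assembly list had 7 rises and 1 fall, 28.0% and 4.0% beside 17.3% and 8.77% of all genes, and in HIF2α-ko 1 of each, 4.0% beside 5.07% and 5.89%.

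Of 12 tested regulators of mitochondrial biogenesis, 8 rose and 2 fell in HIF1α/2α-ko, beside 31.8% and 14.8% of all genes. This list, too, was written with earlier results known and counted without rescaling only. PPRC1, a coactivator of the PGC-1 family, stood at 4.17, 2.90 and 2.09 TPM for vector, at 6.38, 8.75 and 8.44 for HIF1α-ko, at 2.14, 1.95 and 1.84 for HIF2α-ko and at 18.4, 26.9 and 28.2 for HIF1α/2α-ko, a rise of 2.66 (adjusted p = 3.86e-06). Also higher there were ESRRA (1.96), POLRMT (1.24), GABPB1 (1.20), NRF1 (1.14), TFB2M (0.79), YY1 (0.78) and GABPA (0.53). The fallers were MXI1, a repressor that opposes MYC (-1.15, adjusted p = 0.00173), and PPARGC1A (-0.76, adjusted p = 0.00353). MYC (0.91, adjusted p = 0.242) and TFAM (0.34, adjusted p = 0.148) were not called. POLRMT, the RNA polymerase that MRPL12 binds, moved as -0.68 (adjusted p = 0.0343) for HIF1α-ko and 0.78 (adjusted p = 0.0355) for HIF2α-ko.

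**Figure D5:**
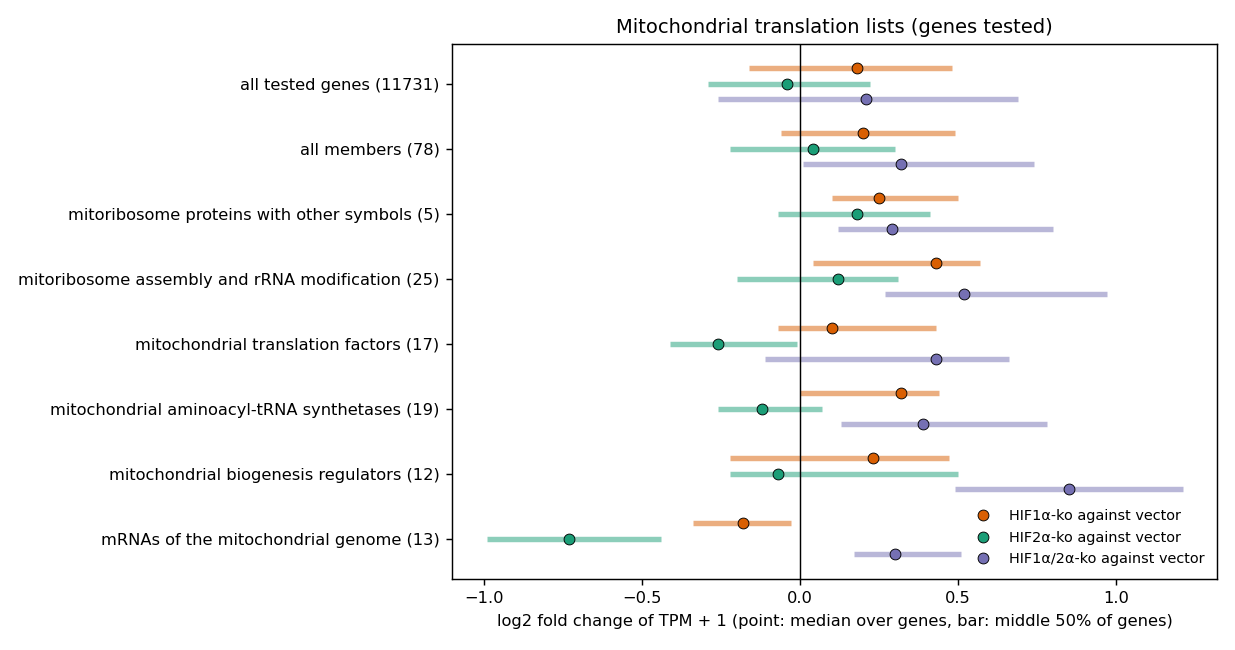
Median log2 fold change of TPM + 1 over the genes of each list (point) and the middle 50% of genes (bar) in the 3 knockouts against vector, with the number of genes tested in brackets. In HIF1α/2α-ko every list drawn has its median right of that of all genes (0.21). These medians run from 0.29 for the mitoribosome proteins with other symbols to 0.85 for the regulators, with the ribosomal protein genes at 0.32. The mitochondrial mRNAs lie farthest left in HIF2α-ko.

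Of the 78 genes, 26 share exon bases with another gene of the table, 9 on the same strand and 17 on the opposite strand only, and 29 have a start of a divergently transcribed gene within 1000 bases. MRPS11 and MRPL46 are such a pair, with starts 34 bases apart, and neither was called against vector. Among the 52 genes that share no exon bases, 20 rose and 2 fell in HIF1α/2α-ko (38.5% and 3.85%, beside 31.8% and 14.8% of all genes). The counts were 9 and 3 in HIF1α-ko (17.3% and 5.77%, beside 17.3% and 8.77%) and 8 and 3 in HIF2α-ko (15.4% and 5.77%, beside 5.07% and 5.89%).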

How the data were processed

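TPM is the unit the authors deposited, 1 column per library (reads per gene divided by gene length and scaled to a fixed total per library), made from mRNA libraries; the submitters' processing notes name FastQC 0.11.2, Trimmomatic 0.36, HISAT2 2.0, bedtools 2.26.0 and GRCh38, and the counting tool, annotation and strand setting are not given in the sources used here. Column totals were 999955 to 999982, so depth is unknown and no counting error or detection limit is given. Columns whose names carry no knockout code were taken as vector.

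Symbols were matched for 20148 genes, with 76 more from GENCODE 29, which also gave positions, and 39 without a symbol. TPM was transformed to log2(TPM + 1), and genes reaching TPM 1 in 3 libraries or more entered limma 3.58.1 (R 4.3.3), mean-variance trend, all groups in 1 model and Benjamini-Hochberg adjustment within each of 7 contrasts, at 0.05. A fold change on this scale understates that of low genes. The script was tested on simulated data. Summaries and plots used matplotlib 3.10.9, numpy 2.4.6, pandas 2.3.3 and Python 3.11.15.

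Samples were grouped by their labels. The members and lists were chosen with earlier results of these data known. Genes were named by rule: among genes past the threshold, the 6 largest rises and falls in each knockout against vector and the 3 largest in each other contrast, the 3 highest and lowest mean levels, genes of a stated role, mitoribosome proteins with other symbols, the 2 largest changes of each pathway list in HIF1α/2α-ko, the biogenesis regulators, and the targeted genes. Other genes with values were chosen after their values were seen.

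Same-numbered knockout libraries deviated together (Pearson r of deviations from group means 0.196 to 0.508 in all 9 pairs), and vector libraries did not (-0.0265 to 0.163), so a replicate block was applied to the knockout groups. Alternatives were a pseudocount of 0.1, no filter, a mean TPM of at least 5, median ratio and quantile scaling, only the groups compared, no trend, removal of length or GC trends over 20 bins, the replicate block, replicate 1 of every group left out, each library left out, and, chosen after seeing the data, only members that share no exon bases.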

Additional observations from a re-analysis of the deposited data

Results flagged for a closer look

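For 17 genes the HIF1α/2α-ko change differed from the 2 single-knockout changes added together, as tested with the interaction term (limma, adjusted p under 0.05). Positive terms made up 15.4% and negative ones 6.41% of the 78 genes, near the 13.2% and 7.35% of all genes. With quantile normalization 8 were positive and 12 negative. The term was positive for MRPS30 (1.48), MRPS10 (1.18), MRPS5 (1.17), MRPL32 (1.08), MRPS26 (1.05), MRPL12 (0.91), MRPL37 (0.84), MRPS15 (0.84), MRPL9 (0.80), MRPS2 (0.76), MRPS27 (0.76) and MRPL24 (0.69). It was negative for MRPS6 (-1.63), MRPL23 (-0.84), MRPL41 (-0.77), MRPL54 (-0.69) and MRPL14 (-0.61). MRPS15, a conserved small subunit protein, stood at 123, 123 and 140 TPM for vector, at 112, 105 and 112 for HIF1α-ko, at 115, 108 and 113 for HIF2α-ko and at 179, 170 and 167 for HIF1α/2α-ko, which lay above all other libraries.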

How the results depend on the processing

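Counts are given as higher and then lower among the 78 genes, and no cause was tested except where a setting holds fewer genes or libraries. A percentage alone in brackets is the share of all genes called in the same direction and setting. Against vector the counts were 19 (17.3%) and 5 (8.77%) for HIF1α-ko, 10 (5.07%) and 7 (5.89%) for HIF2α-ko, 32 (31.8%) and 6 (14.8%) for HIF1α/2α-ko. Median ratio scaling gave 11 higher (10.9%) in HIF1α-ko, 21 (24.3%) for HIF1α/2α-ko and 19 (23.4%) for HIF1α/2α-ko against HIF2α-ko. It gave 3 higher (8.78%) for HIF1α-ko against HIF2α-ko and 7 (11.8%) for the interaction. Quantile normalization gave 10 lower (24.3%) in HIF1α/2α-ko, 7 lower (15.6%) against HIF1α-ko, and 19 higher (23.3%) and 10 lower (22.3%) against HIF2α-ko. It gave 6 higher (11.5%) between the single knockouts and 8 higher (11.5%) and 12 lower (11.2%) for the interaction. With only the groups compared, HIF1α-ko had 3 lower (6.33%), HIF2α-ko had 5 higher (2.42%) and 1 lower (2.79%), and HIF1α/2α-ko had 3 lower (11.6%). The replicate block on the knockout groups gave 32 (29.3%) and 7 (19.4%) against HIF1α-ko and 29 higher (38.2%) between the single knockouts. Over all libraries, where vector is not paired, it gave 8 lower (9.48%) for the interaction. The replicate block ended no named call between knockouts. With the GC trend removed, 4 were higher in HIF2α-ko, 5 lower against HIF1α-ko, 2 lower against HIF2α-ko and 3 lower for the interaction; 3 were lower against HIF2α-ko with no mean-variance trend and 3 with the length trend removed, and 5 were lower against HIF1α-ko with no filter.

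Leaving out replicate 1 of every group gave 31 and 11 for HIF1α-ko (39.7% and 14.1%, beside 39.5% and 15.9% of all genes), 20 and 13 for HIF2α-ko (25.6% and 16.7%, beside 20.7% and 16.3%), 30 and 6 against HIF1α-ko, 24 higher between the single knockouts, and 22 and 11 for the interaction, and turned the median of HIF2α-ko relative to all genes from 0.08 to -0.01. Among genes sharing no exon bases, the counts were 9 and 3 for HIF1α-ko, 8 and 3 for HIF2α-ko and 20 and 2 for HIF1α/2α-ko, with the shares given above. They were 9 and 1 against HIF1α-ko (17.3% and 1.92%, beside 17.7% and 10.6% of all genes) and 20 higher against HIF2α-ko (38.5%, beside 33.5%). Between the single knockouts 7 were higher (13.5%, beside 17.8%), and for the interaction 7 (13.5%, beside 13.2%).

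With single libraries left out, counts ran from 11 to 22 and 3 to 7 for HIF1α-ko, 5 to 12 and 1 to 9 for HIF2α-ko, 25 to 37 and 3 to 7 for HIF1α/2α-ko, 10 to 23 and 1 to 7 against HIF1α-ko, 22 to 36 and 2 to 6 against HIF2α-ko, 2 to 13 and 2 to 4 between the single knockouts, and 7 to 16 and 3 to 8 for the interaction. The shares of all genes moved too. Higher calls ran from 8.56% to 24.2% for HIF1α-ko, 2.11% to 11.1% for HIF2α-ko and 24.8% to 36.6% for HIF1α/2α-ko. They ran from 11.4% to 21.3% against HIF1α-ko and 25.6% to 37.7% against HIF2α-ko. Between the single knockouts they ran from 7.17% to 23.0%, and for the interaction from 8.33% to 17.5%. Lower calls, in the same order, ran from 4.63% to 11.7%, 1.87% to 10.2%, 11.7% to 15.3%, 7.1% to 13.5%, 9.65% to 14.9%, 4.92% to 9.03% and 4.63% to 12.9%. HIF1α-ko counts fell to 11 higher without HIF1α-ko replicate 3, and to 3 lower when that library or vector replicate 2 or 3 was absent. HIF2α-ko counts fell to 5 higher when vector replicate 3 was absent, and likewise for HIF2α-ko replicates 1 and 2. Lower calls there fell to 1 when vector replicate 3 was absent, to 2 for vector replicate 2 and for HIF2α-ko replicate 3, and to 3 for HIF2α-ko replicate 2. In HIF1α/2α-ko 3 were lower without vector replicate 2 or HIF1α/2α-ko replicate 2 or 3. Against HIF1α-ko, 11 were higher when HIF1α-ko replicate 1, HIF1α-ko replicate 3 or HIF1α/2α-ko replicate 2 was absent, and 10 for HIF1α/2α-ko replicate 3. There 7 were lower without vector replicate 1, and 1 without HIF1α-ko replicate 3 or HIF1α/2α-ko replicate 2. Against HIF2α-ko, 3 were lower without HIF1α-ko replicate 2 or 3, and 2 without HIF1α/2α-ko replicate 3. Between the single knockouts, 3 and 2 were higher without HIF1α-ko replicates 2 and 3, and 4, 3 and 7 without HIF2α-ko replicates 1, 2 and 3; 2 were lower without HIF1α-ko replicate 2. For the interaction, 7 were higher without HIF1α-ko, HIF2α-ko or HIF1α/2α-ko replicate 3, 8 lower without vector replicate 1 and 3 lower without HIF1α-ko replicate 3. Of 67 named differences past the threshold, 44 were kept under every setting and library left out.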

Other observations

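MRPL34, a conserved large subunit protein, varied widely within groups, at 32.6, 12.6 and 28.4 TPM for vector, 16.2, 55.4 and 15.4 for HIF1α-ko, 7.75, 15.1 and 8.32 for HIF2α-ko and 19.3, 14.4 and 16.9 for HIF1α/2α-ko, with no call against vector. MRPL10 stood at 30.6, 72.4 and 29.9 TPM in HIF2α-ko, where replicate 2 alone was high. Replicate 2 of HIF1α-ko and replicate 2 of HIF2α-ko were high for MRPL34 within their groups.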
